A study of Mus musculus with 19 samples.

Results

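A set of 9 pericentral liver genes, *Glul*, *Oat*, *Slc1a2*, *Rhbg*, *Lgr5*, *Axin2*, *Tbx3*, *Gulo* and *Lhpp*, was followed in livers of mice with thioacetamide (TAA)-induced fibrosis. They were taken by name from the deposited table of raw counts, which lists 31053 genes, and all 9 were found by Ensembl identifier. With TAA and AAV-GFP, *Glul*, *Oat*, *Slc1a2* and *Lhpp* were lower than in vehicle-treated mice. With TAA and AAV-miR-34b/c, *Glul* was 1.71-fold higher than with AAV-GFP (a call lost in 10 of 14 fits that left out a library), *Oat* and *Lhpp* were still lower than in vehicle-treated mice, and the means of *Glul* and *Slc1a2* were close to those of vehicle. The difference of *Slc1a2* between the TAA groups missed the threshold (edgeR adjusted p = 0.0536), and 2 of its 7 AAV-miR-34b/c livers lay within the AAV-GFP range.

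Hepatocytes around the central vein of the lobule receive WNT ligands from endothelial cells of that vein, and β-catenin with TCF/LEF factors then switches on a set of genes in the innermost layer of cells. Glutamine synthetase is the best known of these, and it removes ammonium that has escaped the periportal urea cycle. Pericentral hepatocytes are also the cells in which cytochrome P450 enzymes convert TAA to reactive metabolites.

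All animals were male C57BL/6 mice (C57BL6J in the strain label), 6 to 8 weeks old at the start. The vehicle group (5 livers) received PBS and no vector. The AAV-GFP group (7 livers) received rising doses of TAA for 12 weeks and, at week 10, AAV8 TBG eGFP. The AAV-miR-34b/c group (7 livers) received the same TAA and, at week 10, AAV8 TBG miR-34b together with AAV8 TBG miR-34c. Mice were killed 4 weeks after the injection. TBG is the thyroxine-binding globulin promoter, which is active in hepatocytes, and the study describes AAV8 as reaching mainly pericentral hepatocytes in mice. Since no vehicle-treated mouse received a vector, TAA and the vector cannot be told apart in the comparisons with vehicle, and the miR-34b and miR-34c transcripts themselves were not analysed here. In RNA from whole liver, fewer cells of a type and less RNA per cell cannot be told apart.

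Total counts on genes were 2214073 to 5208405 per library (median 2991704), and the groups overlapped in depth. Levels are given in CPM, which scale each count to the TMM-normalized size of its library. Differences are log2 fold changes of edgeR's quasi-likelihood test, and a gene was called where the Benjamini-Hochberg adjusted p over all genes tested was under 0.05. Hepatocyte markers summed to 78603 to 100476 CPM in vehicle, 78946 to 89766 CPM in AAV-GFP and 82471 to 123436 CPM in AAV-miR-34b/c livers. Macrophage markers (13 genes) summed to 520 to 1011, 473 to 773 and 654 to 931 CPM in the same order, and in AAV-GFP against vehicle 4 of 12 tested were called lower and 1 higher. Cholangiocyte markers (8 genes) summed to 18.2 to 32.2, 29.6 to 73.2 and 37.1 to 93.9 CPM. Liver endothelial markers (13 genes) summed to 264 to 304, 220 to 300 and 271 to 355 CPM. Summed markers of activated hepatic stellate cells (HSC) were 76.4 to 169 CPM in vehicle-treated mice, 158 to 321 CPM in AAV-GFP-injected mice and 88.5 to 150 CPM in AAV-miR-34b/c-injected mice. In AAV-GFP against vehicle, edgeR called 3 of 9 hepatocyte and 4 of 9 activated HSC markers, all higher, and 0 of 11 endothelial markers. Of all genes, 12.7% were called there. Between the TAA groups it called 3 of 7 activated HSC markers lower, and of 12 macrophage markers 2 higher and 1 lower. Hepatocyte and endothelial markers had 1 higher each, of 9 and 11, where 3.36% of all genes were called. Mitochondrial genes took 3.73% to 5.65% of counts in vehicle livers, 7.85% to 9.41% in AAV-GFP livers 1 to 4, 4.83% to 5.50% in AAV-GFP livers 5 to 7 and 8.21% to 10.8% in AAV-miR-34b/c livers 3 to 7, but 3.71% and 3.73% in livers 1 and 2 of that group. The part of these markers and shares in the results was not tested, beyond fits without AAV-miR-34b/c livers 1 and 2, which were chosen after seeing the data. In 10 of the 52 pairs of libraries within a group, the libraries resembled each other more than the remaining pairs did (coefficient of variation beyond counting noise under 0.2), and results with these libraries summed are given where a call changed.

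The vectors of the miR group carry microRNAs that bind transcripts mainly through the seed, bases 2 to 8 of the mature strand. The mature miR-34b-5p of RefSeq (GRCm38.p6, minus strand of chr9:51103610-51103632) is shown because 2 of the 9 genes hold a match to its seed, which is in capitals. Its match in a transcript reads CACTGCC.

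mmu-miR-34b-5p: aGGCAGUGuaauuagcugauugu

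Across the longest annotated 3′ UTR of each gene (GENCODE, GRCm38), the match was present at a single place in *Slc1a2* and in *Lhpp* and absent from the other 7 genes. Of 9122 tested genes with an annotated 3′ UTR, 17.3% held it. In *Slc1a2* it lies at bases 4209 to 4215 of a 9253-base 3′ UTR, and in *Lhpp* at bases 411 to 417 of 735. The match is in capitals below, and in neither gene is it followed by an A.

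Slc1a2 site: tcttcccagttCACTGCCctcgcccttcc

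Lhpp site: tggatgagatgCACTGCCtcctcgatgaa

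Neither transcript was called lower in AAV-miR-34b/c-injected than in AAV-GFP-injected mice (log2 fold change 0.94, 95% confidence interval 0.40 to 1.48, for *Slc1a2*, and 0.45, interval -0.17 to 1.06, for *Lhpp*).

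**Figure D1:**
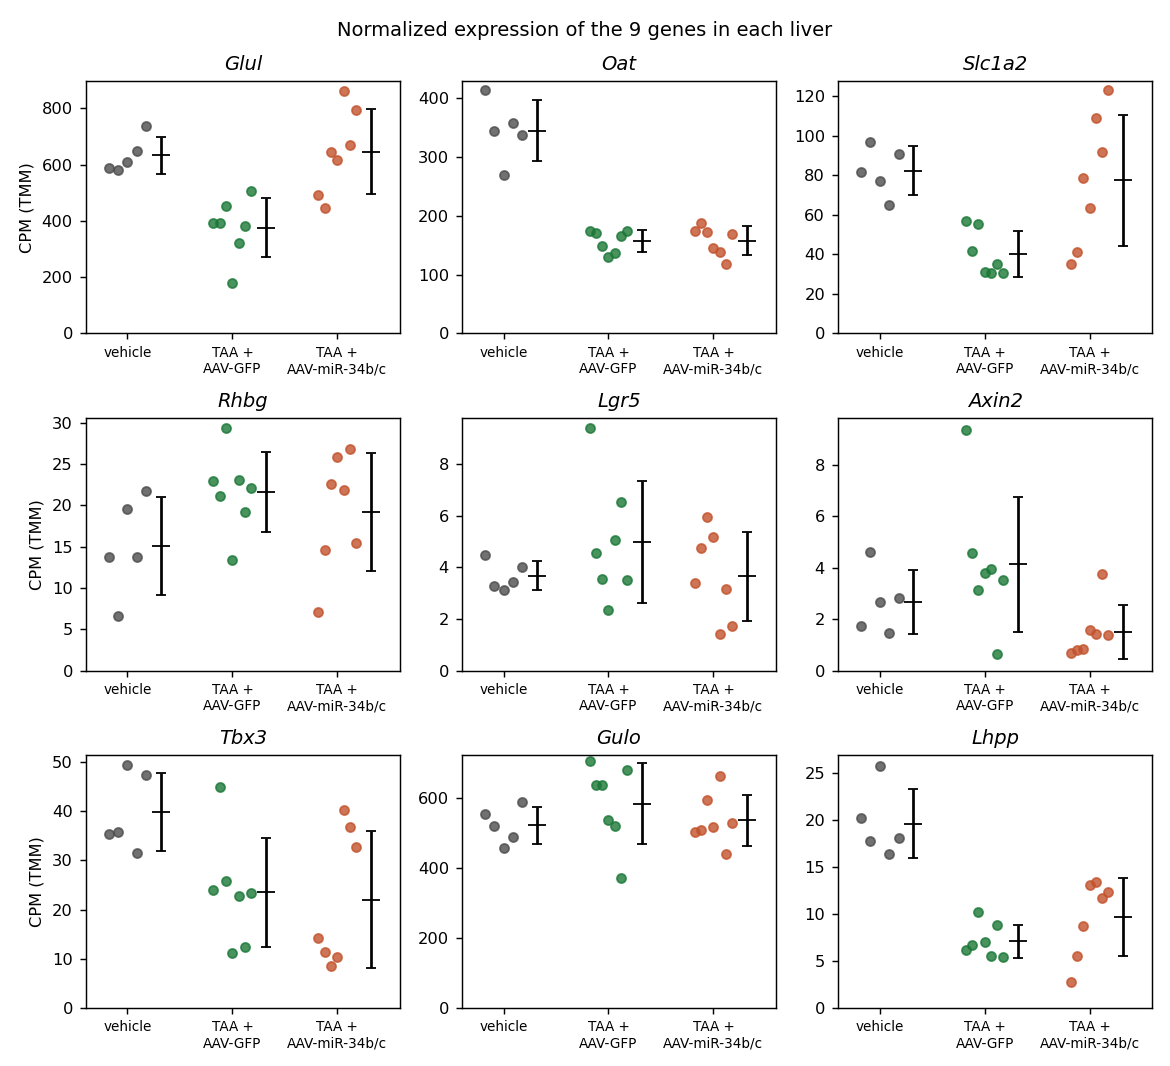
Normalized expression (CPM on TMM-normalized library sizes, each y axis from 0) of the 9 genes, with a point per liver and the mean and SD beside each group of 5, 7 and 7 livers. The AAV-GFP points of *Glul*, *Oat*, *Slc1a2* and *Lhpp* all lie below the vehicle points. The share of all genes whose groups lie apart in this way is not given here.

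*Glul* (ENSMUSG00000026473; GRCm38 chr1:153899944-153909723, plus strand) encodes glutamine synthetase, which joins ammonium to glutamate. In the vehicle group, its level was 586, 580, 610, 648 and 738 CPM in livers 1 to 5. In AAV-GFP-injected mice the lowest, median and highest livers had 178, 393 and 505 CPM. In AAV-miR-34b/c-injected mice they had 444, 646 and 862 CPM. Every AAV-GFP liver was below every vehicle liver, and 5 of the 7 AAV-miR-34b/c livers were above every AAV-GFP liver. How common such separation was among all genes is not given, for this gene or for those below. The means were 633 ± 64.9 CPM (SD, n = 5) in vehicle-treated, 375 ± 104 CPM (SD, n = 7) with AAV-GFP and 646 ± 150 CPM (SD, n = 7) with AAV-miR-34b/c.

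*Glul* was lower in AAV-GFP-injected than in vehicle-treated mice by a log2 fold change of -0.75 (SE 0.197, edgeR adjusted p = 0.0167), with an exact permutation p of 0.00253 (two-sided, difference of mean log2 CPM). It was higher in AAV-miR-34b/c-injected than in AAV-GFP-injected mice by 0.78 (SE 0.202, edgeR adjusted p = 0.0390, exact permutation p = 0.00291). Against vehicle, the AAV-miR-34b/c group differed by 0.036 (95% confidence interval -0.32 to 0.39, edgeR adjusted p = 0.898). The call between the TAA groups was close to the threshold. In the 14 fits that each left out a library the fold change stayed positive, with edgeR adjusted p from 0.0240 to 0.0868. The call was kept only without AAV-GFP liver 4 or 7 or without AAV-miR-34b/c liver 1 or 2. Without both of the latter the difference was 0.92 (edgeR adjusted p = 0.0109). It was also lost with library size only (0.61, edgeR adjusted p = 0.108) and with the replicate block (0.80, edgeR adjusted p = 0.0958). With close libraries summed, the adjusted p was 0.157 for this call and 0.108 for the difference between AAV-GFP and vehicle.

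*Slc1a2* (ENSMUSG00000005089; chr2:102658659-102790784, plus strand) encodes the glutamate transporter GLT-1, which in the liver brings the substrate of glutamine synthetase into pericentral hepatocytes. Vehicle livers 1 to 5 had 81.7, 96.7, 76.9, 65.0 and 90.9 CPM. AAV-GFP livers had 30.7, 35.1 and 56.9 CPM (lowest, median, highest), all below the vehicle range. AAV-miR-34b/c livers spread more widely, with 34.9, 78.4 and 123 CPM. Livers 1 and 2 of that group, at 34.9 and 41.4 CPM, were within the AAV-GFP range, and the other 5 were above it.

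The mean of *Slc1a2* was 82.2 ± 12.4 CPM (SD, n = 5) with vehicle, 40.2 ± 11.5 CPM (SD, n = 7) with AAV-GFP and 77.4 ± 33.1 CPM (SD, n = 7) with AAV-miR-34b/c. The difference between AAV-GFP and vehicle was -1.03 (SE 0.195, edgeR adjusted p = 0.00247), or 2.04-fold lower. Between the TAA groups it was 0.94 in favour of AAV-miR-34b/c (SE 0.259), the edgeR adjusted p of 0.0536 missed the threshold and the exact permutation p was 0.0181. This difference was called by DESeq2 (adjusted p = 0.0143), by limma-voom (0.0116), in edgeR with all 3 groups in the fit (0.0192) and in edgeR without a filter on low counts (0.0381). It was not called with at least 10 counts in every library (0.0533), with DESeq2 size factors (0.0506), with library size only (0.117), with the replicate block (0.239) or with close libraries summed (0.116). Without AAV-miR-34b/c livers 1 and 2 it was 1.20 (edgeR adjusted p = 0.00264). AAV-miR-34b/c against vehicle gave -0.082 (95% confidence interval -0.63 to 0.47, edgeR adjusted p = 0.849).

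Since *Slc1a2* is also a gene of astrocytes, markers of neurons and glia were summed beside it. They came to 17.8 to 28.6 CPM in vehicle, 20.5 to 39.4 CPM in AAV-GFP and 9.07 to 28.6 CPM in AAV-miR-34b/c livers, over 8 genes, with *Snap25* at 0 in every library and *S100b* at 0 in the vehicle and AAV-miR-34b/c groups. Of the 2 markers tested in AAV-GFP against vehicle, *Aqp4* had 0.405 ± 0.496 CPM (SD, n = 5) with vehicle and 5.59 ± 3.09 CPM (SD, n = 7) with AAV-GFP. It passed the filter on low counts only through the AAV-GFP group, so its test is not given. *Syt1* was not called (log2 fold change -0.29, edgeR adjusted p = 0.535). Their part in the level of *Slc1a2* was not tested.

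The promoter window of *Slc1a2* is shown because this gene alone, of the 4 whose window is in the RefSeq table (*Glul*, *Oat*, *Slc1a2* and *Axin2*), held a TCF/LEF core motif. The letters searched were CTTTGAT and CTTTGAA on both strands, in windows of 250 bases before to 50 bases after the start. The match, in capitals, is CTTTGAT on the minus strand and begins 207 bases before the start (GRCm38.p6, chr2:102706188-102706487, plus strand).

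Slc1a2 promoter: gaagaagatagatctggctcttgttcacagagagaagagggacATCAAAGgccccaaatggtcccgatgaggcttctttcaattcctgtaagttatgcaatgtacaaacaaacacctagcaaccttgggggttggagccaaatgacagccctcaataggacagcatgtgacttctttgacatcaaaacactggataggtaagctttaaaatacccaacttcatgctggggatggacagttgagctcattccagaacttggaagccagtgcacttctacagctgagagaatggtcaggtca

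Of all 32851 windows in the table, 8.7% held either motif. The RefSeq start used here lies inside the gene as GENCODE annotates it. The GC content of the window was 45.7%, against 64.3% for *Glul*, 61.7% for *Oat*, 70.0% for *Axin2* and a median of 52.7% over all windows.

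*Oat* (ENSMUSG00000030934; chr7:132557478-132576398, minus strand) encodes ornithine aminotransferase, which turns ornithine into a precursor of glutamate. Its level in vehicle livers 1 to 5 was 414, 345, 269, 357 and 337 CPM. AAV-GFP livers had 129, 166 and 175 CPM, and AAV-miR-34b/c livers 117, 169 and 188 CPM (lowest, median, highest). All 14 livers of TAA-treated mice were below all 5 vehicle livers, and the TAA groups overlapped. Against vehicle, *Oat* was lower by a log2 fold change of -1.13 in AAV-GFP-injected mice (SE 0.149, edgeR adjusted p = 8.02e-05) and of -1.12 in AAV-miR-34b/c-injected mice (SE 0.153, edgeR adjusted p = 0.000229). The exact permutation p of each was 0.00126, the smallest that 5 against 7 livers allow. Between the TAA groups the means were 157 ± 18.7 and 158 ± 24.8 CPM (SD, n = 7 each), and the confidence interval of the log2 fold change ran from -0.29 to 0.29 (edgeR adjusted p = 0.997). Unlike *Glul* and *Slc1a2*, *Oat* thus had a level with AAV-miR-34b/c that lay apart from vehicle.

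*Rhbg* (ENSMUSG00000104445; chr3:88242874-88254709, minus strand) encodes an ammonium transporter of the Rhesus family in the membrane of pericentral hepatocytes. Vehicle livers 1 to 5 had 13.7, 6.58, 19.6, 13.7 and 21.7 CPM. The lowest, median and highest levels were 13.4, 22.1 and 29.4 CPM with AAV-GFP and 7.12, 21.9 and 26.8 CPM with AAV-miR-34b/c. The groups overlapped, and none of the 3 comparisons passed the test. The log2 fold change was 0.53 for AAV-GFP against vehicle (95% confidence interval -0.0041 to 1.07, edgeR adjusted p = 0.171), -0.17 for AAV-miR-34b/c against AAV-GFP (adjusted p = 0.813) and, comparing AAV-miR-34b/c with vehicle, 0.37 (adjusted p = 0.407). Its gene model overlaps another on the same strand, *Gm38392*, so counts could be split between them.

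*Axin2* (ENSMUSG00000000142; chr11:108920349-108950783, plus strand) encodes a scaffold of the β-catenin destruction complex and is a feedback target of WNT signalling in many tissues. Its counts were low, at 5, 14, 6, 6 and 7 reads in vehicle livers 1 to 5, 29, 17, 8, 13, 18, 2 and 11 reads in AAV-GFP livers 1 to 7, and 2, 2, 3, 4, 4, 18 and 4 reads in AAV-miR-34b/c livers 1 to 7. With AAV-miR-34b/c, 6 of 7 livers had 4 reads or fewer, and liver 6 had 18. With AAV-GFP, 6 of 7 livers had 8 reads or more, and liver 6 had 2. The mean was 2.65 ± 1.24 CPM (SD, n = 5) with vehicle, 4.14 ± 2.62 CPM (SD, n = 7) with AAV-GFP and 1.49 ± 1.06 CPM (SD, n = 7) with AAV-miR-34b/c.

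*Axin2* was not called between AAV-GFP and vehicle. It passed the filter on low counts there mainly through the AAV-GFP group, where its counts were higher, so that test is not given. The exact permutation test, which uses no filter, gave a difference in mean log2 CPM of 0.41 between these groups (p = 0.389). In both comparisons with AAV-miR-34b/c, the filter on low counts left *Axin2* out. The exact permutation test gave a difference in mean log2 CPM of -1.08 between the TAA groups, lower with AAV-miR-34b/c (p = 0.0210, not adjusted over the 27 such tests run). edgeR without the filter gave a log2 fold change of -1.39 (SE 0.481) and an adjusted p of 0.167. Among the edgeR fits in which it was tested, it was called only where leaving out AAV-GFP liver 6 let it through the filter. In that fit *Axin2* passed mainly through the AAV-GFP group, where its counts were higher, so that test is not given. Against vehicle the difference was -0.67 (exact permutation p = 0.0783). An antisense gene, *Gm11670*, overlaps *Axin2*, and reads of the pair cannot be told apart if strand was not used in counting. The same holds for *Slc1a2* with *Gm13872*, *Tbx3* with *Tbx3os1*, *Lgr5* with *A930009A15Rik* and *Glul* with *Teddm2*. *Glul* is also overlapped by *Mir8114* on its own strand.

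*Lgr5* (ENSMUSG00000020140; chr10:115450311-115587780, minus strand) encodes a receptor for R-spondins, which amplify WNT signalling, and marks the hepatocytes next to the central vein. It too had few reads, with 7 to 14 in vehicle, 8 to 29 in AAV-GFP and 4 to 21 in AAV-miR-34b/c livers. The means were 3.66 ± 0.563 CPM (SD, n = 5), 4.98 ± 2.35 CPM (SD, n = 7) and 3.64 ± 1.72 CPM (SD, n = 7). AAV-GFP liver 1, with 9.37 CPM, was the highest, and AAV-miR-34b/c livers 5 and 7, with 1.41 and 1.72 CPM, were the lowest. No comparison passed the test, with edgeR adjusted p of 0.422, 0.618 and 0.990 for AAV-GFP against vehicle, AAV-miR-34b/c against AAV-GFP and AAV-miR-34b/c against vehicle. At this depth the 95% confidence interval between the TAA groups ran from -1.21 to 0.29, so a change of 2-fold downwards lies within it.

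*Tbx3* (ENSMUSG00000018604; chr5:119670669-119684724, plus strand) encodes a T-box transcription factor that follows β-catenin activity in pericentral hepatocytes. Vehicle livers 1 to 5 had 35.3, 35.9, 49.4, 31.5 and 47.5 CPM. In AAV-GFP-injected mice, 6 of 7 livers were below all vehicle livers, with 11.1, 23.4 and 45.0 CPM as lowest, median and highest. In AAV-miR-34b/c-injected mice, livers 1 to 4 had 14.2, 11.4, 8.46 and 10.3 CPM, and livers 5 to 7 had 40.2, 36.8 and 32.7 CPM. The first 4 were below all vehicle livers and the last 3 were within the vehicle range.

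The log2 fold change of *Tbx3* was -0.75 for AAV-GFP against vehicle (SE 0.268, edgeR adjusted p = 0.0680, exact permutation p = 0.0240), and with AAV-miR-34b/c it was -0.84 (SE 0.349, edgeR adjusted p = 0.0923, exact permutation p = 0.0328). Neither passed the test across genes. limma-voom called both, with adjusted p of 0.0248 and 0.0144, as did the replicate block (0.0197 and 0.00959), and edgeR without a filter called the first (0.0468). The adjusted p reached 0.176 and 0.313 with close libraries summed, and 0.163 for the first with all 3 groups in the fit. Leaving out AAV-GFP liver 2, the liver at 45.0 CPM, gave an edgeR adjusted p of 0.0148 for the first, and leaving out AAV-miR-34b/c liver 5 gave 0.0434 for the second. The other fits with a library left out did not call it, with adjusted p up to 0.142 and 0.170. *Tbx3* differed between the TAA groups by -0.10 (95% confidence interval -0.87 to 0.68, edgeR adjusted p = 0.946).

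*Gulo* (ENSMUSG00000034450; chr14:65986786-66009207, minus strand) encodes gulonolactone oxidase, the last enzyme of vitamin C synthesis in the mouse. It had 555, 520, 456, 490 and 591 CPM in vehicle livers 1 to 5, 370, 638 and 706 CPM with AAV-GFP and 440, 519 and 665 CPM with AAV-miR-34b/c (lowest, median, highest). The groups overlapped throughout. The log2 fold changes were 0.16 (95% confidence interval -0.19 to 0.52) for AAV-GFP against vehicle, -0.13 (-0.45 to 0.19) for AAV-miR-34b/c against AAV-GFP and 0.046 (-0.25 to 0.34) when AAV-miR-34b/c was compared with vehicle, with edgeR adjusted p of 0.545, 0.770 and 0.840. A change of 2-fold in either direction lay outside all 3 intervals.

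*Lhpp* (ENSMUSG00000030946; chr7:132610638-132706420, plus strand) encodes a phosphatase that acts on phosphohistidine. It lies 34.2 kb from *Oat*. Vehicle livers 1 to 5 had 20.2, 17.8, 25.8, 16.4 and 18.1 CPM. AAV-GFP livers had 5.44, 6.70 and 10.2 CPM and AAV-miR-34b/c livers 2.71, 11.7 and 13.4 CPM (lowest, median, highest). All 14 livers of TAA-treated mice were below all vehicle livers. With AAV-miR-34b/c, livers 1 and 2 had 2.71 and 5.52 CPM and the other 5 had 8.75 CPM or more.

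*Lhpp* was 2.77-fold lower in AAV-GFP-injected than in vehicle-treated mice (log2 fold change -1.47, SE 0.224, edgeR adjusted p = 0.000373) and 2.01-fold lower in AAV-miR-34b/c-injected than in vehicle-treated mice (-1.01, SE 0.297, edgeR adjusted p = 0.0238). The second call was lost without vehicle liver 1 (adjusted p = 0.0515) or 3 (0.0582) and with close libraries summed (0.117). AAV-miR-34b/c and AAV-GFP differed by 0.45 (SE 0.293, edgeR adjusted p = 0.519). Both *Oat* and *Lhpp* are overlapped by a gene model of *Fgfr2*, and *Lhpp* also by the antisense gene *Gm15582*.

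**Figure D2:**
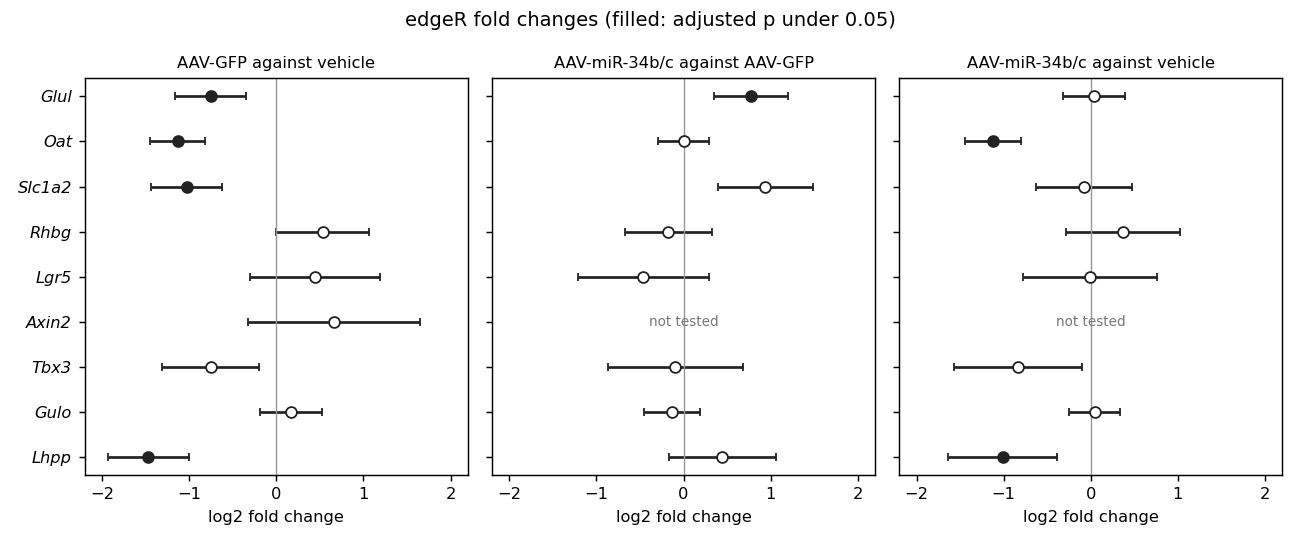
edgeR log2 fold changes of the 9 genes in the 3 comparisons, with 95% confidence intervals; filled points passed an adjusted p of 0.05. *Oat* and *Lhpp* are filled in both comparisons with vehicle, and *Glul* alone is filled between the TAA groups. *Axin2* in AAV-GFP against vehicle passed the filter on low counts mainly through the AAV-GFP group, so its point is not read.

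In AAV-GFP against vehicle, 4 of the 9 genes were called and all 4 were lower, where 12.7% of the 9522 genes tested were called, 7.54% higher and 5.19% lower. In AAV-miR-34b/c against AAV-GFP, 1 of 8 tested was called and it was higher, where 3.36% of 9252 were called, 1.95% higher and 1.42% lower. In AAV-miR-34b/c against vehicle, 2 of 8 tested were called and both were lower, where 21.9% of 9290 were called, 12.2% higher and 9.75% lower. The median log2 fold change of the tested members was -0.75, -0.047 and -0.045 in the 3 comparisons, and that of all genes tested was -0.0090, -0.0075 and 0.016. Scaling by library size alone moved the median of all genes to -0.20 between the TAA groups and to -0.13 for AAV-miR-34b/c against vehicle, and turned 180 higher and 131 lower calls into 119 and 505, and 1131 higher and 906 lower calls into 730 and 1616. Under that scaling the 2 calls of members in AAV-miR-34b/c against vehicle were kept. The genes called between AAV-GFP and vehicle were *Glul*, *Slc1a2*, *Oat* and *Lhpp*. The other 5 did not pass the test, with *Lgr5*, *Rhbg* and *Gulo* at values above 0 and *Tbx3* below 0. *Axin2* passed the filter on low counts mainly through the AAV-GFP group, so nothing is read from its test.

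**Figure D3:**
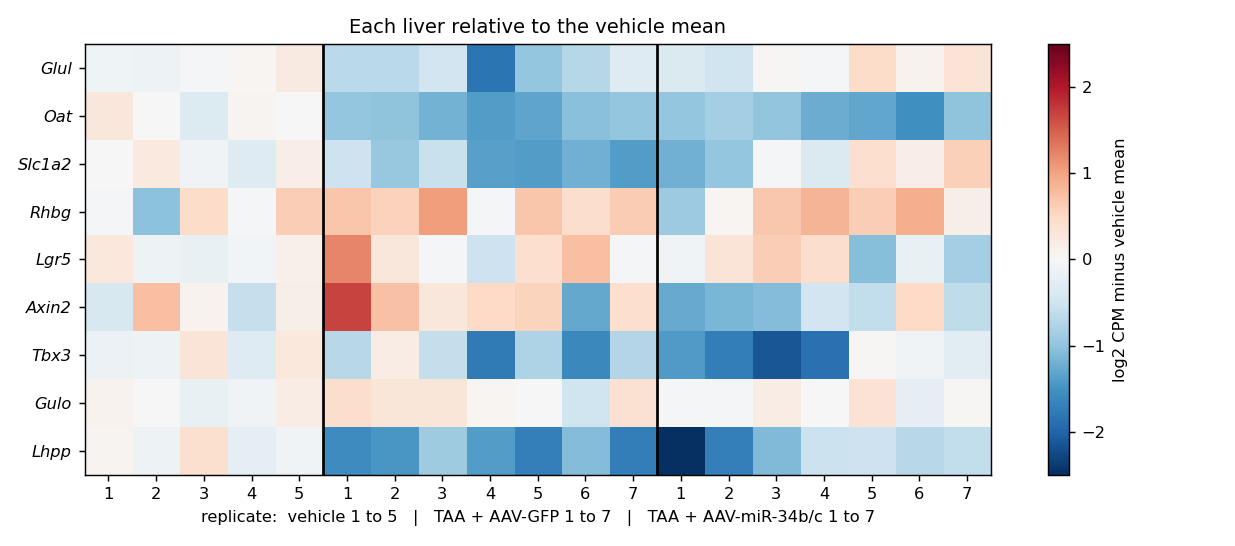
Each liver's log2 CPM minus the vehicle mean for the 9 genes (red above, blue below), with livers in columns by group and replicate number. *Oat* and *Lhpp* are blue in all 14 livers of TAA-treated mice, and *Tbx3* is blue in AAV-miR-34b/c livers 1 to 4 and pale in livers 5 to 7.

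The 9 genes did not vary as a block. *Glul* and *Slc1a2* had a Pearson r of 0.81 over the 19 libraries (0.60 after subtracting group means), with r of -0.031 among the 5 vehicle livers, 0.39 among the 7 AAV-GFP livers and 0.95 among the 7 AAV-miR-34b/c livers. *Slc1a2* and *Lhpp* had r = 0.74 after subtracting group means. Of 36 pairs of members, 6 had r above 0.5 after subtracting group means and none had r below -0.5. These values describe libraries that share processing and close pairs, and no p is given. AAV-miR-34b/c livers 1 and 2, which are a close pair and had the lowest mitochondrial shares of their group, were the lowest of their group for *Glul*, *Slc1a2* and *Lhpp*. Livers 1 and 2 were also its lowest for *Rhbg* and, at 2 reads each, for *Axin2*, and its highest for *Oat*. The part of these livers and of the close pairs in the r values was not tested.

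**Figure D4:**
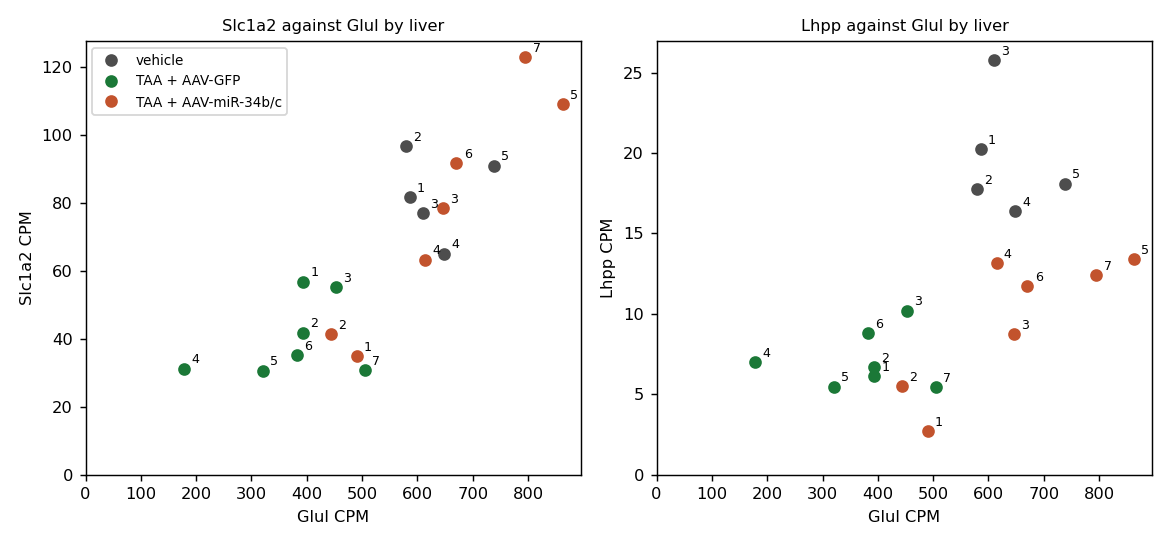
*Slc1a2* (left) and *Lhpp* (right) against *Glul* in each liver, in CPM with both axes from 0; numbers are replicate numbers. AAV-miR-34b/c livers 1 and 2 lie near the AAV-GFP livers in both panels, and *Lhpp* is lower in all 7 AAV-miR-34b/c livers than in any vehicle liver.

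Among 9928 genes, those most like *Glul* over the 19 libraries were *Cyld* (r = 0.84, 0.66 after subtracting group means), *Extl1* (0.84 and 0.78), *Slc1a2* (0.81 and 0.60), *Msmo1* (0.79 and 0.65) and *Mup7* (0.77 and 0.72). *Cyld* encodes a deubiquitinase and had 24.2 ± 2.46 CPM (SD, n = 5) with vehicle, 16.7 ± 2.97 CPM (SD, n = 7) with AAV-GFP and 23.5 ± 5.30 CPM (SD, n = 7) with AAV-miR-34b/c. *Mup7* belongs to the major urinary proteins, near-identical genes whose reads can be split.

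Other genes of the pericentral programme were taken as a list of 28, of which 27 were tested. Over all genes tested, edgeR called 12.7%, 3.36% and 21.9% in the 3 comparisons, beside which this list and those below are read. Of the 27 pericentral genes, 18.5%, 25.9% and 55.6% were called. In AAV-GFP against vehicle, 2 were called higher and 3 lower, with a median log2 fold change of -0.10. *Cyp7a1*, the rate-limiting enzyme of bile acid synthesis, had 368 ± 55.2 CPM (SD, n = 5) in vehicle and 60.4 ± 38.5 CPM (SD, n = 7) in AAV-GFP livers (log2 fold change -2.61, edgeR adjusted p = 9.01e-06). The P450 genes *Cyp2c37* (-1.54) and *Cyp2c38* (1.57) were called in opposite directions, and *Cyp2a5* was higher (1.05). Between the TAA groups, 3 were called higher and 4 lower (median -0.31), among them *Cyp2a5* (-1.99) and the aldehyde dehydrogenase *Aldh3a2* (-1.69) lower and the ribonuclease *Rnase4* (0.75) and the dicarboxylate transporter *Slc13a3* (1.58) higher. With AAV-miR-34b/c against vehicle, 15 of 27 were called, 2 higher and 13 lower, with a median of -0.49, where 9.75% of all genes were called lower. *Cyp2c37* (-2.38) and *Cyp7a1* (-1.85) were lower, and *Slc13a3* (1.78) and *Cyp2c38* (1.16) were the 2 higher.

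Of 16 WNT feedback and target genes, 9, 8 and 7 were tested in the 3 comparisons. *Rnf43*, a ubiquitin ligase that removes WNT receptors, was edgeR's only call. It was lower in AAV-GFP than in vehicle livers (-1.20, SE 0.312, edgeR adjusted p = 0.0165). When AAV-miR-34b/c was compared with vehicle, *Rnf43* was again counted as lower. There it passed the filter on low counts mainly through the vehicle group, so that test is not given. Its levels were 13.5 ± 2.19 CPM (SD, n = 5), 5.85 ± 2.85 CPM (SD, n = 7) and 3.50 ± 1.83 CPM (SD, n = 7). In the comparison of the TAA groups, edgeR called 0 of 8, with 2 at an unadjusted p under 0.05, DESeq2 called 0 and limma-voom 1, and the median was -0.49.

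Of 37 WNT ligands, receptors and genes of the β-catenin machinery, 24 were tested. The shares called were 20.8%, 0% and 16.7% in the 3 comparisons, against 12.7%, 3.36% and 21.9% of all genes. In AAV-GFP against vehicle, 4 were higher and 1 lower (median 0.24). *Bcl9l*, a β-catenin coactivator, went from 13.6 ± 2.93 CPM (SD, n = 5) to 54.6 ± 33.1 CPM (SD, n = 7, edgeR adjusted p = 0.00395). Its AAV-GFP livers ranged from 17.2 to 88.6 CPM and its vehicle livers from 10.2 to 18.2 CPM, so the groups overlapped. The kinases *Gsk3b* and *Gsk3a* were higher by log2 fold changes of 1.32 and 1.18, and their AAV-GFP and vehicle ranges overlapped too. The co-receptor *Lrp5*, counted among the 4, had medians of 1.71 CPM with vehicle and 5.86 CPM with AAV-GFP. It passed the filter on low counts only through the AAV-GFP group, so its test is not given. Of 24 tested between the TAA groups, edgeR called 0, with 4 at an unadjusted p under 0.05, DESeq2 called 0 and limma-voom 1. Against vehicle, AAV-miR-34b/c livers had 3 higher, among them *Bcl9l* (1.61) and *Gsk3b* (1.05), and 1 lower, the receptor *Fzd7* (-1.22). *Lrp5* was counted among the 3, with a median of 9.83 CPM in AAV-miR-34b/c livers. It passed the filter only through that group, so its test is not given here either.

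Around *Glul*, *Oat*, *Slc1a2* and *Rhbg*, 34 further genes of glutamine, glutamate, ornithine and ammonium were listed and 25 or 26 tested. The shares called were 23.1%, 4% and 26.9% in the 3 comparisons, against 12.7%, 3.36% and 21.9% of all genes. In AAV-GFP against vehicle, 3 were higher and 3 lower (median -0.054). *Gpt2*, mitochondrial alanine aminotransferase, was lower (edgeR adjusted p = 0.000417), and *Got2*, mitochondrial aspartate aminotransferase, was higher (0.78). *Asns*, asparagine synthetase, was counted among the lower, with medians of 7.56 CPM with vehicle and 2.28 CPM with AAV-GFP. It passed the filter on low counts mainly through the vehicle group, so its test is not given. *Gclc*, the catalytic subunit of the enzyme that uses glutamate for glutathione, had 145 ± 11.4 CPM (SD, n = 5) with vehicle, 419 ± 64.5 CPM (SD, n = 7) with AAV-GFP and 170 ± 25.1 CPM (SD, n = 7) with AAV-miR-34b/c. It was called higher in AAV-GFP than in vehicle livers (1.53) and was edgeR's only call of 25 between the TAA groups (-1.31, edgeR adjusted p = 2.97e-05), where 6 had an unadjusted p under 0.05, DESeq2 called 2 and limma-voom 5. Against vehicle, AAV-miR-34b/c livers had 2 higher and 5 lower (median -0.094), among them the mitochondrial aspartate and glutamate carrier *Slc25a13* (-1.07), *Gpt2* (-0.98) and the cationic amino acid transporter *Slc7a2* (-0.93). *Gpt2* had, like *Oat*, a level with AAV-miR-34b/c (194 ± 31.2 CPM; SD, n = 7) near that with AAV-GFP (192 ± 24.7 CPM; SD, n = 7) and below vehicle (385 ± 67.9 CPM; SD, n = 5).

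At the periportal end of the lobule, 24 genes were tested. The shares called were 20.8%, 12.5% and 33.3% in the 3 comparisons, against 12.7%, 3.36% and 21.9% of all genes. In AAV-GFP against vehicle, 4 were higher and 1 lower (median 0.097), with *Aldh1b1* (1.69), the phosphoethanolamine lyase *Etnppl* (1.59), *Apoa4* (1.51) and the urocanate hydratase *Uroc1* (0.71) named. Between the TAA groups, with AAV-miR-34b/c, *Ctsc* was higher (1.21), and *Etnppl* (-2.11) and the glucose-6-phosphatase *G6pc* (-1.18) were lower. Compared with vehicle, in AAV-miR-34b/c livers 5 were higher and 3 lower (median 0.21), with *Aldh1b1* (1.60) and *Apoa4* (0.86) among the higher and the urea cycle genes *Cps1* (-0.90) and *Otc* (-0.63) among the lower ones. Of 14 genes around *Gulo* and *Lhpp* in vitamin C and phosphohistidine metabolism, the histidine kinase *Nme2* was edgeR's only call in AAV-GFP against vehicle (-0.75, edgeR adjusted p = 0.0301; DESeq2 called 3 and limma-voom 6), edgeR called 0 between the TAA groups (5 at an unadjusted p under 0.05, DESeq2 1 and limma-voom 3), and *Ugp2* (-1.17), *Nme2* (-0.82) and *Rgn* (-0.67) were lower in AAV-miR-34b/c than in vehicle livers.

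**Figure D5:**
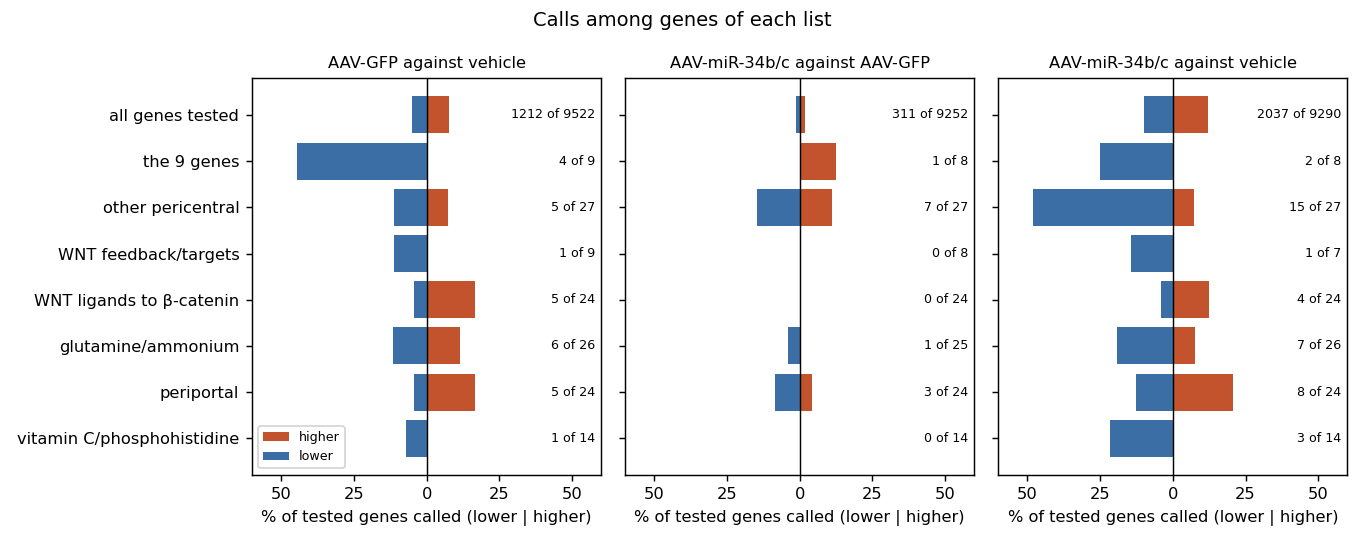
Share of tested genes called lower (left of 0) or higher (right of 0) in each list and comparison, in percent, with called and tested genes as numbers beside the bars. The 9 genes are 4 lower of 9, 1 higher of 8 and 2 lower of 8, and the other pericentral genes have 15 of 27 called in AAV-miR-34b/c against vehicle.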

How the data were processed

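Liver RNA of 19 mice was made into QuantSeq libraries, which read polyadenylated transcripts near their 3′ end (single-end, 100 bp), so that counts depend little on transcript length. The authors' provider filtered, trimmed, aligned and counted the reads, and the authors deposited raw counts per gene; STAR and mm10 are in the submitters' processing notes. The annotation, whether strand was used and whether molecular identifiers were counted are not given in the sources used here, so errors from counts can include PCR duplicates. Symbols were found for 30934 of 31053 genes in GENCODE (GRCm38).

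Counts were tested with edgeR 4.0.16 (R 4.3.3; TMM, filterByExpr with a minimum count of 10 and total of 15, glmQLFTest), with only the groups compared in a fit and no covariate, tested on simulated data first. Confidence intervals use the moderated degrees of freedom. Single genes were also tested by a two-sided exact permutation of mean log2 CPM (prior count 2), 27 in all. Alternatives were other filters, DESeq2 size factors, library size only, DESeq2 1.42.0, limma-voom (limma 3.58.1), all groups in the fit, a replicate block, close libraries summed (3, 5 and 4 samples), each library left out and, added after seeing the data, AAV-miR-34b/c livers 1 and 2 left out together. Named genes were all 9 members, up to 4 called genes of largest change per list (other than cell type markers) and comparison, the 5 most like *Glul*, and markers only where their levels stand beside a member; 1 gene of these lists is not reported here. The members and lists were chosen with earlier results of these data known. Labels call the samples biological replicates.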

Additional observations from a re-analysis of the deposited data

Results flagged for a closer look

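Total counts of the AAV-GFP group had a library that stood apart from the others of its group. AAV-GFP liver 5 had a total of 4383805 counts, and the next highest had 3239809, a gap of 0.596 of the group's whole range, above Dixon's 95% critical value for 7 libraries. In liver 5, *Glul* was 320 CPM, and *Slc1a2*, at 30.7 CPM, was the lowest of the group. Vehicle liver 2 had a mitochondrial share of 5.65% of counts, and the next highest vehicle liver had 3.94%, a gap of 0.891 of the range. These 2 values passed Dixon's limit for their group size among 51 sets of libraries (in each group, the totals, the mitochondrial share, the sums of 6 marker lists and the log2 CPM of the 9 genes), where chance gives about 1 in 20. The total of vehicle liver 4 (gap 0.649) did not pass the limit for 5 libraries. *Axin2* in AAV-miR-34b/c liver 6 was just under the limit on the log2 scale (gap 0.563) and above it in CPM (0.704). *Glul* in AAV-GFP liver 4, at 178 CPM with the next lowest at 320 CPM, was also just under it on the log2 scale (gap 0.561).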

How the results depend on the processing

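The 4 members called in AAV-GFP against vehicle stayed between 3 and 5 over the 9 other settings and between 4 and 5 with a library left out. *Oat*, *Slc1a2* and *Lhpp* were called there in all of these fits, as was *Oat* in AAV-miR-34b/c against vehicle. Over all genes, the calls in that first comparison (1212) became 2687 with limma-voom, 3088 with the replicate block, 193 with close libraries summed, and 689 to 1859 with a library left out, with 728 without vehicle liver 1, 689 without vehicle liver 4, 806 without AAV-GFP liver 3 and 1859 without AAV-GFP liver 6. For AAV-miR-34b/c against AAV-GFP (311), they became 624 with library size only, 542 with DESeq2, 813 with limma-voom, 142 with the replicate block and 69 with close libraries summed. For AAV-miR-34b/c against vehicle (2037), they became 3839 with limma-voom, 922 with the replicate block, 331 with close libraries summed, and 1267 to 2695 with a library left out, with 1328 without vehicle liver 1 and 1267 without vehicle liver 4. The cause of these shifts was not tested, except that summing leaves 3, 5 and 4 samples.

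The single member called between the TAA groups became 2 without a filter, with DESeq2, with limma-voom and with all 3 groups in the fit (*Glul* and *Slc1a2*). It became 0 with library size only, with the replicate block (*Glul* 0.80, edgeR adjusted p = 0.0958) and with close libraries summed. With a library left out it became 0 to 2. There were 2 (*Glul* and *Slc1a2*) without AAV-miR-34b/c liver 1 or 2, and *Slc1a2* alone without AAV-GFP liver 1. *Glul* alone was called without AAV-GFP liver 4 or 7, *Axin2* alone without AAV-GFP liver 6, and 0 without any other. *Axin2* passed the filter in that fit mainly through the AAV-GFP group, where its counts were higher, so nothing is read from that call. The 2 members called in AAV-miR-34b/c against vehicle became 1 with at least 10 counts in every library, where *Lhpp* was not tested, and 1 with close libraries summed, and 1 to 3 with a library left out, 1 without vehicle liver 1 or 3 and 3 without AAV-miR-34b/c liver 5. With the replicate block, *Tbx3* was called in AAV-GFP (adjusted p = 0.0197) and in AAV-miR-34b/c (0.00959) against vehicle. Replicate numbers did not pair the samples: same-numbered deviations correlated at -0.030 to 0.23, -0.28 to 0.21 and -0.21 to 0.24, and 1 of 5, 1 of 7 and 2 of 5 libraries correlated best with their own number.

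Reversed signs were seen only for differences that were not called. Between the TAA groups, *Oat* was -0.0069 with at least 10 counts in every library, -0.20 with library size only, -0.0051 with the replicate block, -0.040 with close libraries summed and -0.047 to 0.069 with a library left out, and *Tbx3* was 0.072 with close libraries summed and -0.31 to 0.15 with a library left out. In AAV-miR-34b/c against vehicle, *Glul* was -0.079 with library size only and -0.062 with the replicate block (-0.048 to 0.11 with a library left out), *Gulo* -0.088 with library size only (-0.014 to 0.098), *Slc1a2* 0.022 with limma-voom (-0.23 to 0.043) and *Lgr5* 0.13 with the replicate block (-0.095 to 0.13). With AAV-miR-34b/c livers 1 and 2 both left out, a fit chosen after seeing the data, 720 genes were called between the TAA groups, among them 2 members (*Glul* and *Slc1a2*), and 3878 against vehicle. *Oat* (-0.096), *Rhbg* (0.047) and *Tbx3* (0.12) between the TAA groups and *Slc1a2* (0.18) against vehicle turned sign in that fit, none of them called. The exact permutation p of *Axin2* between the TAA groups ran from 0.00233 to 0.0437 with a library left out. Depth limits *Axin2* and *Lgr5* most, at 2 to 29 reads per library.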
